A study of Homo sapiens with 21 samples.

Results

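Metallothioneins are small cysteine-rich proteins that bind zinc, copper and cadmium, and 9 genes of this system were followed in HepG2 cells given caffeine: the metallothionein genes MT2A, MT1E, MT1F, MT1G, MT1M and MT1X, the zinc-sensing transcription factor MTF1, the zinc exporter SLC30A1 and the zinc, iron and manganese importer SLC39A14. They were taken by symbol from the Ensembl identifiers of a table of 37637 features. Of the 9 genes, 8 passed the filter on low counts, within 17951 features tested, and MT1M did not. HepG2 is an established human hepatocellular carcinoma line. The groups were cells kept for 24 h in serum-free DMEM with no caffeine (control) or with 0.01, 0.1, 1, 10, 100 or 1000 µM caffeine. Each of the 7 groups had 3 libraries, which the series text calls biological replicates, so that there were 21 in all. All groups share the serum-free medium and the 1 cell line, whose cancer origin limits it as a model of normal liver. The question was which of these transcripts differed from control at each dose, and at which dose the difference appeared.

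In hepatocytes zinc that enters the cell is bound by metallothioneins, is stored in vesicles or leaves again across the plasma membrane through SLC30A1. When free zinc or cadmium rises, MTF1 binds metal response elements in the promoters of metallothionein genes and of SLC30A1 and raises their transcription. Metallothionein genes also respond to glucocorticoids and to oxidative stress, and SLC39A14 is a gene of the hepatic acute phase response. In RNA from bulk cultures, fewer cells that express a gene and less RNA of that gene per cell cannot be told apart.

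The 6 metallothionein genes lie together on chromosome 16 (GENCODE 29, GRCh38). MT2A spans chr16:56608199-56609497, MT1E chr16:56625475-56627112, MT1M chr16:56632233-56633986, MT1F chr16:56657694-56660698, MT1G chr16:56666731-56668065 and MT1X chr16:56682424-56684196. MT1G is on the minus strand and the others are on the plus strand. MTF1 lies at chr1:37809567-37859620 and SLC30A1 at chr1:211571568-211578742, both on the minus strand. The coding sequences of the 5 metallothioneins that were tested are given here because their likeness bears on how far reads can be told apart. The codons for cysteine, the residue that holds the metal, are in capitals.
MT2A: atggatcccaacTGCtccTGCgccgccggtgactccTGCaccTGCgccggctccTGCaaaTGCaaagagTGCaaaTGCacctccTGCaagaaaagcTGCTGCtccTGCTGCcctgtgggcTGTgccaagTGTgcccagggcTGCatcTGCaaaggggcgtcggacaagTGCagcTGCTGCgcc
MT1E: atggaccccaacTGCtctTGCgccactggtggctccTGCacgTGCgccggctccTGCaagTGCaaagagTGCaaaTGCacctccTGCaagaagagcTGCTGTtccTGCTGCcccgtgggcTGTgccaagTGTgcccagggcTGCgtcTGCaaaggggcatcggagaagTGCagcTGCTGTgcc
MT1X: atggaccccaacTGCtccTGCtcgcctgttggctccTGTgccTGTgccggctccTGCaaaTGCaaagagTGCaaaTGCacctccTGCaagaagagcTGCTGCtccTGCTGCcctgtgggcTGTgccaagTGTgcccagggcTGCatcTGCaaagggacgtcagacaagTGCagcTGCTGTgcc
MT1F: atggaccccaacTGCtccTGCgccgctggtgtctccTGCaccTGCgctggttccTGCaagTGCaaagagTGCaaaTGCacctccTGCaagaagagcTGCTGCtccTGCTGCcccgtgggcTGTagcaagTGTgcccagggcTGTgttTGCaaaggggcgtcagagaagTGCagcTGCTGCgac
MT1G: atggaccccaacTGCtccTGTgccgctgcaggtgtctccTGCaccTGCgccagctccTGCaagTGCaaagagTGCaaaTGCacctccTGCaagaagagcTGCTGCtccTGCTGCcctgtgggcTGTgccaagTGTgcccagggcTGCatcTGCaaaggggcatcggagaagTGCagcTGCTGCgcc

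Each of these coding sequences holds 20 cysteine codons, which is 32.8% of the 61 codons of MT2A, MT1E, MT1X and MT1F and 32.3% of the 62 codons of MT1G. Over the 6 metallothionein genes, pairwise identity of the coding sequences ran from 88.5% for MT1F and MT1X to 93.5% for MT1G and MT2A. Of the windows of 50 bases along the first listed transcript of each gene, 45.1% occurred in a transcript of another gene for MT1X, 20.2% for MT1G, 7.05% for MT1M, 5.34% for MT1E, 4.88% for MT2A and 3.59% for MT1F. How reads that fit several genes were counted is not given in the sources used here, so the split of reads between MT1X, MT1G and the other members is uncertain. The locus of MT1X also overlaps AC026461.1 on the same strand. MTF1 overlaps the pseudogene AL929472.4 and SLC39A14 overlaps AC105910.1, each on the opposite strand. Use of strand in the counting is likewise not given in the sources used here.

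Promoters from RefSeq (GRCh38.p14) were at hand for 4 of the 9 genes, namely MT2A, MT1X, SLC30A1 and MTF1. The core of the metal response element, TGCACNC or TGCGCNC on either strand, was searched in the window from 250 bases before to 50 bases after each RefSeq start site. It occurred 8 times for MT2A, 4 times for MT1X, 2 times for SLC30A1 and 0 times for MTF1. Of 35116 promoters of the same length, 29.6% held at least 1 such match and 0.601% held 4 or more. The RefSeq start sites differ from the first bases of the GENCODE 29 genes given above. They lie inside the gene by 385 bases for MT2A, 46 for MT1X and 28 for MTF1, and 419 bases upstream of it for SLC30A1. The 250 bases before the RefSeq start site are shown for the 3 promoters with matches, since these genes moved with dose in different ways, with the matches in capitals.
MT2A promoter, chr16:56608334-56608583, plus strand: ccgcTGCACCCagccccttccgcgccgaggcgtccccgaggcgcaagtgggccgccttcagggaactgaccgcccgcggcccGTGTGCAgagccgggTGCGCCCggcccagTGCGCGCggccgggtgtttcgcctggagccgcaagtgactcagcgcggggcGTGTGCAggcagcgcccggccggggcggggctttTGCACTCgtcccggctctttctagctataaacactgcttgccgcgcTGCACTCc
MT1X promoter, chr16:56682220-56682469, plus strand: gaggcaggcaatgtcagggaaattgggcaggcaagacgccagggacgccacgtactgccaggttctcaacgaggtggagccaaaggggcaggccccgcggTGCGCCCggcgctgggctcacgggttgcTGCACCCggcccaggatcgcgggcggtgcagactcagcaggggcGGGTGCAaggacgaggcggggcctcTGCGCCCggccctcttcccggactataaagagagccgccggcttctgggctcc
SLC30A1 promoter, chr1:211579162-211579411, minus strand: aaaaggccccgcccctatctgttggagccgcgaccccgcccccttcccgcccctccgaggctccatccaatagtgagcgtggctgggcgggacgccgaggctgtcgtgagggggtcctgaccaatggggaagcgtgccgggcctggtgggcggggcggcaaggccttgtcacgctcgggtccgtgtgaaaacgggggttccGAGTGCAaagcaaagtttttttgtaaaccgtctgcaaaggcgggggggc

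Before the start site there were 7 matches for MT2A, 4 for MT1X and 1 for SLC30A1. The antioxidant response element core TGACNNNGC occurred 1 time in each of the windows of MT2A, MT1X and SLC30A1 and 0 times in that of MTF1, against 13.3% of all promoters with at least 1. These matches describe letters only, since binding was not measured.

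Total counts per library ran from 23502519 to 44815552. All 10 hepatocyte markers were present (summed 28202 to 42889 CPM over libraries, where CPM, the usual depth-scaled unit, is a gene's counts relative to the TMM-scaled library size). The sum was 34700 to 42889 CPM in controls and 28202 to 29572 CPM at 1000 µM. Of 7 markers of other cells, PTPRC, VWF, COL1A1 and DCN stayed at or below 0.23 CPM, while CD68 reached 18.2 to 71.7 CPM and ACTA2 15.2 to 51.1 CPM. PECAM1 was not analysed here. The markers of other cells summed to 75.6 to 94.4 CPM in controls, 81.9 to 123 CPM at 100 µM and 33.9 to 70.4 CPM at 1000 µM. What part these shifts have in the results was not tested. Libraries of 1 group did not all resemble each other. Clustering on the 13 mitochondrial mRNAs gave 3 sets, named A with 11 libraries (9.93% to 14.2% mitochondrial reads), B with 7 (4.70% to 4.93%) and C with 3 (11.7% to 12.8%). Set A holds every library of control, 0.01 and 0.1 µM and replicates 1 and 2 at 1 µM. The 3 libraries of 10 µM are all in set B, as is 1 µM replicate 3. At 100 µM replicate 2 is in set B and the rest in set C, and at 1000 µM replicate 3 is in set C and the rest in set B. No control falls in sets B or C, so set and dose are partly confounded. Results of the members at 10 µM and above are therefore given also with the set as a term, and for 1000 against 10 µM within set B. Only the 1 µM group has libraries in both set A and set B. Contrasts of 10 µM and above with control, under the set term, thus rest on 1 µM replicate 3 against replicates 1 and 2. A call lost or gained in those fits therefore does not separate set from dose.

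Every metallothionein that was tested rose at 100 and at 1000 µM caffeine, and none passed the test at 0.01 to 10 µM. At 1000 µM, 6 of the 9 genes were called higher (adjusted p below 0.05, edgeR quasi-likelihood test) and 2 lower, where 57.6% of all features were called, 28.5% higher and 29.1% lower. At 100 µM, 5 were called higher and 2 lower, against 46.6% of all features, 23.6% higher and 22.9% lower. The 3 libraries at 1000 µM did not overlap the 3 controls for any of the 8 genes tested, which held for 56.6% of all features, and at 100 µM they did not overlap for 7 of the 8, against 51.1%. The median log2 fold change of the 8 genes was 1.85 at 1000 µM and 1.69 at 100 µM, and that of all features was -0.01 at both doses. With the library set as a term, 6 were called at 1000 µM and 5 at 100 µM, where 38.0% and 17.3% of all features were. With shares of called features this high, the counts alone do not set these genes apart, and their sizes are given gene by gene.

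**Figure D1:**
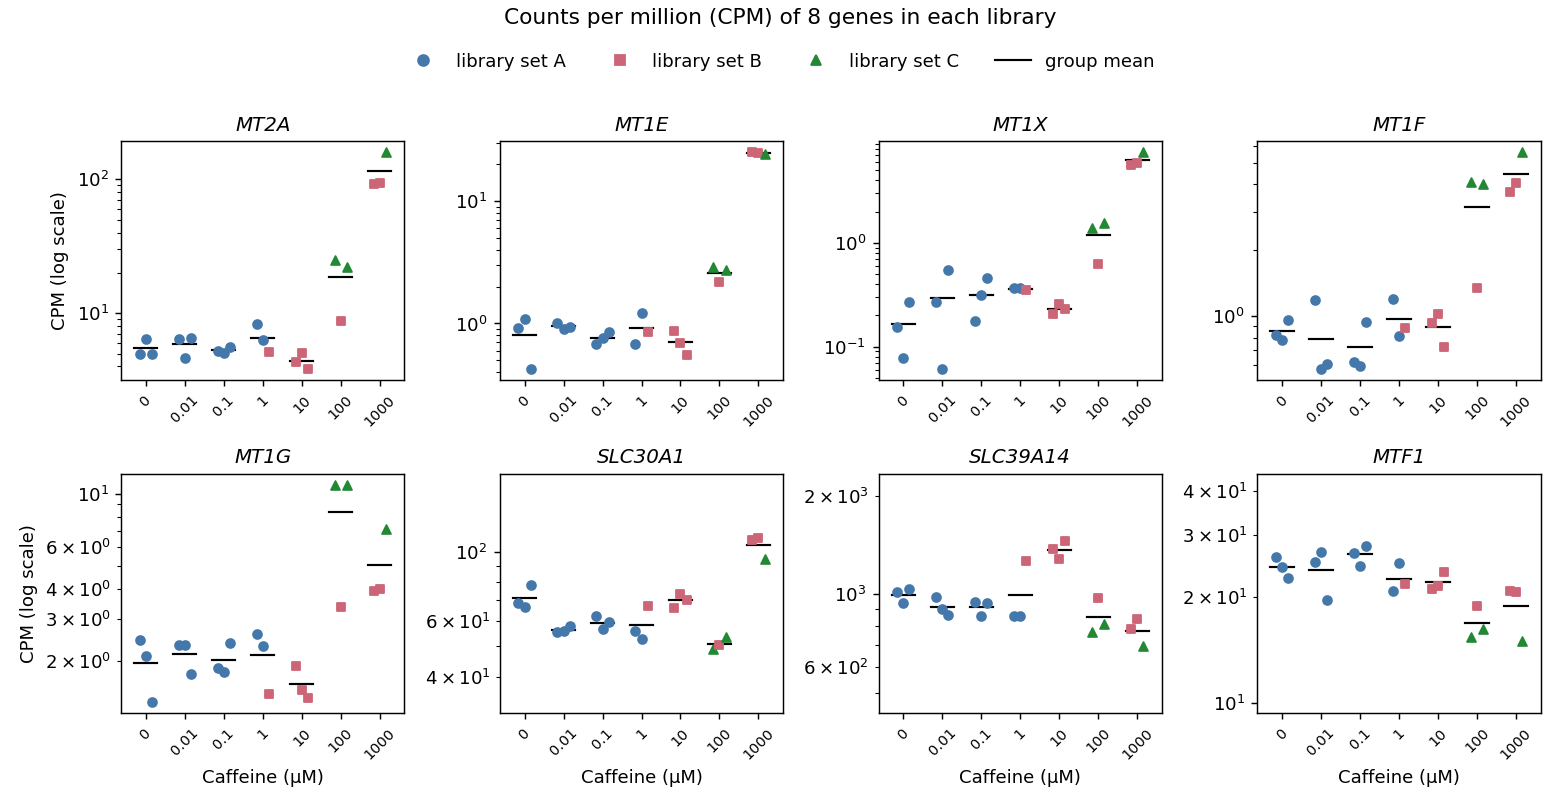
CPM (log axis, its range set per gene) of the 8 tested genes by caffeine dose in µM; each point is 1 of the 21 libraries, with shape and colour for its library set, and the bar is the group mean. The libraries of the 5 metallothioneins at 100 and 1000 µM lie above all those at lower doses, while SLC39A14 at 1 and 10 µM is higher in libraries of set B.

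MT2A, the metallothionein with the most reads in these cells, was at 4.95, 6.46 and 4.95 CPM in the control libraries. It was at 25.0, 8.74 and 22.1 CPM in replicates 1, 2 and 3 at 100 µM and at 92.1, 94.4 and 159 CPM at 1000 µM. Over the 15 libraries from control to 10 µM it ran from 3.81 to 8.25 CPM, with a median of 5.12. All 6 libraries of the 2 highest doses lay above that range, and the lowest of them was replicate 2 at 100 µM, the only library of that dose in set B. Group means were 5.45 ± 0.875 (SD, n = 3) in control, 5.89 ± 1.08 at 0.01, 5.29 ± 0.264 at 0.1, 6.55 ± 1.58 at 1, 4.38 ± 0.602 at 10, 18.6 ± 8.66 at 100 and 115 ± 38.1 at 1000 µM. Every pair of the 5 means from control to 10 µM overlapped within 1 SD, except 10 and 0.1 µM. The libraries at 10 µM lay below all those at 0.1 and at 1 µM. MT2A was 3.36-fold higher at 100 µM (log2 fold change 1.75 ± 0.32 SE, edgeR adjusted p = 0.000265). At 1000 µM it was 21.0-fold higher (4.39 ± 0.34, adjusted p = 8.53e-09). With the set as a term the log2 fold changes were 1.42 and 4.49. Without the libraries of set C, which leaves 1 library at 100 µM whose spread is taken from the other groups, MT2A was higher at that dose by 0.68 ± 0.22 on the log2 scale (adjusted p = 0.0203).

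MT1E rose at both doses, with little spread between libraries at 1000 µM but more in controls (0.810 ± 0.347 CPM, SD, n = 3). Its levels were 0.917, 1.09 and 0.422 CPM in controls, 2.89, 2.20 and 2.74 CPM at 100 µM and 25.1, 24.9 and 24.2 CPM at 1000 µM. The 15 libraries up to 10 µM ran from 0.422 to 1.21 CPM, below every library of the 2 highest doses. Replicates at 1000 µM were close to each other whatever their set, with a mean of 24.7 ± 0.498 CPM (SD, n = 3). MT1E was 3.10-fold higher at 100 µM (1.63 ± 0.24 log2, edgeR adjusted p = 1.78e-05) and 29.6-fold higher at 1000 µM (4.89 ± 0.24, adjusted p = 4.63e-12). With the set term these were 1.70 and 5.00 on the log2 scale.

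MT1X had few reads below 100 µM, and its fold change rests on them. The control libraries held 3 to 7 reads each and 15 in all (exact Poisson interval 8.4 to 24.7, counting error only), against 568 in all at 1000 µM. In CPM these were 0.153, 0.0779 and 0.268 in controls, 1.39, 0.618 and 1.54 at 100 µM and 5.64, 5.92 and 7.46 at 1000 µM. Libraries from control to 10 µM ran from 0.0603 to 0.545 CPM, with a median of 0.268, and did not reach those of 100 µM. The fitted rise was 7.16-fold at 100 µM (2.84 ± 0.52 log2, edgeR adjusted p = 0.00019) and 39.3-fold at 1000 µM (5.30 ± 0.50, adjusted p = 3.36e-08). With the set as a term it was 5.15 at 1000 µM (adjusted p = 8.2e-05), but the call at 100 µM was lost (2.40, adjusted p = 0.0652). In the 1 library left at 100 µM without set C, MT1X was 3.89-fold higher (1.96 ± 0.61, adjusted p = 0.0177).

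MT1F and MT1G also rose at both doses, and MT1G had its higher mean at 100 µM. MT1F was at 0.825, 0.779 and 0.959 CPM in controls, 4.09, 1.34 and 4.01 CPM at 100 µM and 3.70, 4.04 and 5.60 CPM at 1000 µM. MT1G was at 2.44, 2.10 and 1.34 CPM in controls, 10.8, 3.37 and 10.9 CPM at 100 µM and 3.93, 4.00 and 7.09 CPM at 1000 µM. For both genes the libraries of set C were higher than those of set B at the same dose. Within set B the order for MT1G was the other way, with 3.37 CPM in 1 library at 100 µM and a mean of 3.97 CPM in 2 at 1000 µM. At 100 µM MT1F was 3.63-fold higher than control (1.86 ± 0.36 log2, edgeR adjusted p = 0.000341), and 5.19-fold at 1000 µM (2.38 ± 0.36, adjusted p = 1.38e-05). MT1G was 4.18-fold higher at 100 µM (2.06 ± 0.37, adjusted p = 0.00018) and 2.51-fold at 1000 µM (1.33 ± 0.37, adjusted p = 0.00472). Leaving out the 3 libraries of set C leaves 1 library at 100 µM, which is assumed to vary as the other groups do, so this is no test of that dose on its own. That fit gave MT1F at 0.67 (adjusted p = 0.152) and MT1G 0.77 (adjusted p = 0.0519). Under the set term MT1F at 100 µM was 1.24 (adjusted p = 0.131), while MT1G there (1.81) and both at 1000 µM (2.21 and 1.61) were called.

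MT1M was not detected at this depth outside 1 library. It had 1 read in replicate 2 at 1000 µM and 0 in the other 20 libraries, where a count of 0 allows up to 3 counts, or 0.064 to 0.132 CPM by library. Of 13 further metallothionein genes and pseudogenes looked up, 6 were in the table and none passed the filter. MT1A had 8 reads over 7 libraries, MT1JP 4 reads over 3 and MT1B 1 read, and MT1H, MT1L and MT1P1 had none.

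Summed over the 6 metallothionein genes, the level was 9.29, 10.5 and 7.94 CPM in the control libraries, 44.2, 16.3 and 41.2 CPM at 100 µM and 131, 133 and 204 CPM at 1000 µM. Most of the sum at every dose was MT2A. Genes were set side by side per kilobase of all annotated exons of the gene. On that scale the order in control was SLC39A14 at 144 ± 7.43 CPM per kb (SD, n = 3), SLC30A1 at 13.02 ± 1.13, MT2A at 4.20 ± 0.674, MTF1 at 3.04 ± 0.210, MT1G at 2.62 ± 0.753, MT1E at 0.770 ± 0.330, MT1F at 0.452 ± 0.0494 and MT1X at 0.0938 ± 0.0541. Within this order the neighbours MTF1 and MT1G, and MT1E and MT1F, overlapped within 1 SD. At 1000 µM the same scale gave SLC39A14 111 ± 10.9, MT2A 88.8 ± 29.4, MT1E 23.5 ± 0.473, SLC30A1 19.1 ± 1.54, MT1G 6.68 ± 2.40, MT1X 3.58 ± 0.554, MT1F 2.35 ± 0.536 and MTF1 2.35 ± 0.416 CPM per kb. MT2A and MT1E had thus moved above SLC30A1 on this scale, and SLC39A14 and MT2A, like MT1F and MTF1, overlapped within 1 SD. The order depends on the length used. Per kilobase of the first listed transcript, MT1G (4.85 ± 1.39) was above MTF1 (3.06 ± 0.212) in control, while MT1F (1.24 ± 0.135) and MT1E (1.15 ± 0.493) overlapped within 1 SD. At 1000 µM that scale gave SLC39A14 453 ± 44.2 and MT2A 147 ± 48.5, and MT1F 6.44 ± 1.47 and MTF1 2.36 ± 0.419, neither pair overlapping within 1 SD, while MT1X (14.1 ± 2.18) and MT1G (12.4 ± 4.45) overlapped.

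**Figure D2:**
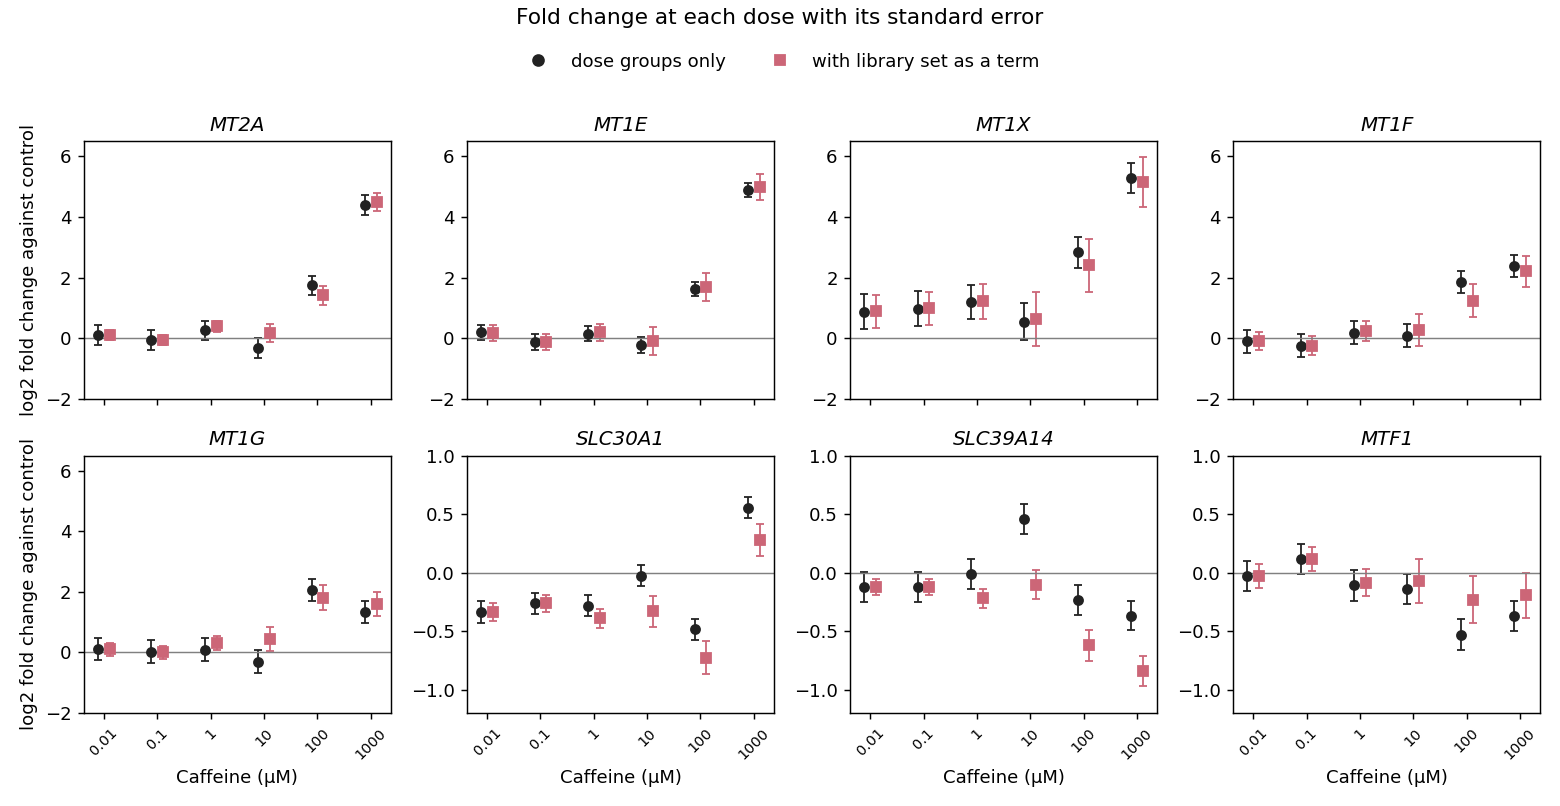
Log2 fold change against control at each dose (µM) for the 8 tested genes, with bars for the standard error; circles are the fit by dose group and squares the fit with the library set as a term, and the axis is wider for the metallothioneins. MT2A, MT1E and MT1X reach 4.39, 4.89 and 5.30 at 1000 µM, MT1G is at 2.06 at 100 µM and 1.33 at 1000 µM, and SLC30A1 is below control at 100 µM and above it at 1000 µM.

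The 2 highest doses were also compared with each other, in the same fit over all 7 groups. From 100 to 1000 µM, 4 of the 9 genes were called higher and 0 lower, where 44.0% of all features were called, 21.8% higher and 22.3% lower. With the set term 6 were called, against 46.3%. MT1E was higher by 3.26 ± 0.21 on the log2 scale (edgeR adjusted p = 4.67e-10), MT2A by 2.64 ± 0.31 (adjusted p = 2.77e-06), MT1X by 2.46 ± 0.40 (adjusted p = 6.06e-05) and SLC30A1 by 1.04 ± 0.092 (adjusted p = 3.11e-08). The set term gave 3.30 for MT1E, 3.07 for MT2A, 2.75 for MT1X and 1.01 for SLC30A1, all called. MTF1 (0.16, adjusted p = 0.351) and SLC39A14 (-0.14, adjusted p = 0.41) did not pass, and SLC39A14 was called lower under the set term (-0.22, adjusted p = 0.0178). MT1F differed by 0.52 ± 0.33 (adjusted p = 0.218) and MT1G by -0.73 ± 0.35 (adjusted p = 0.0977), neither past the threshold. For MT1G the direction was called lower without replicate 2 at 100 µM (-1.12, adjusted p = 0.00216) and without replicate 3 at 1000 µM (-1.06, adjusted p = 0.0263). With the set term MT1G was at -0.20 (adjusted p = 0.46), and MT1F was called higher (0.97, adjusted p = 0.00577). Leaving out set C, so that 1 library is left at 100 µM, turned the direction of MT1G to 0.22. The same fit gave 1.51 for MT1F, 3.49 for MT1E, 3.40 for MT2A, 3.20 for MT1X and 1.11 for SLC30A1.

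SLC30A1 did not follow the metallothioneins at 100 µM. It was at 68.6, 66.8 and 78.3 CPM in controls, 49.1, 50.4 and 53.4 CPM at 100 µM and 109, 110.1 and 95.0 CPM at 1000 µM. The 100 µM libraries were all below the controls and the 1000 µM libraries all above them. In the edgeR test it was lower at 100 µM (log2 -0.48 ± 0.091, adjusted p = 0.000263) and 1.47-fold higher at 1000 µM (0.56 ± 0.091, adjusted p = 3.25e-05). With the set term the fall at 100 µM was -0.73 (adjusted p = 0.00137), and the rise at 1000 µM lost its call (0.28, adjusted p = 0.111).

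Below 100 µM the SLC30A1 means were 71.3 ± 6.17 CPM (SD, n = 3) in control, 56.4 ± 1.21 at 0.01, 59.4 ± 2.84 at 0.1, 58.6 ± 7.50 at 1 and 69.9 ± 3.61 at 10 µM. All 6 libraries at 0.01 and 0.1 µM were below the lowest control, and SLC30A1 was the single member of the 8 whose libraries did not overlap the controls at those doses, where 23.1% and 19.2% of all features did not. The log2 fold changes at 0.01, 0.1 and 1 µM were -0.34, -0.26 and -0.28, with edgeR adjusted p = 0.14, 0.402 and 0.162. With the set as a term, where 3.02% of all features were called at 0.01 µM and 0.629% at 1 µM, 0.01 µM (-0.34, adjusted p = 0.0299) and 1 µM (-0.39, adjusted p = 0.0411) were called lower, and DESeq2 called 0.01 µM (-0.32, adjusted p = 0.0336).

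SLC39A14, on chromosome 8, went the other way from SLC30A1 at 1000 µM. Its means were 997 ± 51.6 CPM (SD, n = 3) in control, 916 ± 59.6 at 0.01, 915 ± 48.1 at 0.1, 992 ± 234 at 1, 1369 ± 88.9 at 10, 850.1 ± 108 at 100 and 774 ± 75.6 at 1000 µM. Single libraries were at 1013, 939.9 and 1039 CPM in control, 1372, 1279 and 1457 at 10 µM and 785, 843 and 693 at 1000 µM. At 1 µM replicates 1, 2 and 3 were at 856, 857 and 1262 CPM, and the high one is the library of that dose in set B. At 10 µM SLC39A14 was called higher (0.46 ± 0.13 log2, edgeR adjusted p = 0.0234), the single member called there, where 14.8% of all features were called. That dose lies wholly in set B. With the set term the direction turned, to -0.10 (adjusted p = 1), and 0.0279% of all features were called. The fit with the set term takes the difference between sets A and B from the 1 µM libraries, so at 10 µM set and dose cannot be told apart.

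The fall of SLC39A14 at 1000 µM was -0.37 ± 0.13 on the log2 scale (edgeR adjusted p = 0.0191), and -0.84 with the set term (adjusted p = 3.35e-05). Without control replicate 3 it lost its call (-0.34, adjusted p = 0.0558), as it did without replicate 3 at 1000 µM (-0.30, adjusted p = 0.0691) and without set C (-0.30, adjusted p = 0.0552). At 100 µM it was -0.23 (adjusted p = 0.147), and -0.62 with the set term (adjusted p = 0.00302).

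MTF1, the factor that carries the zinc signal to these promoters, had less mRNA than control at the 2 doses where the metallothioneins rose, but its calls did not hold in several fits. It was at 26.0, 24.4 and 22.7 CPM in controls, 15.4, 18.9 and 16.3 CPM at 100 µM and 20.8, 20.7 and 15.0 CPM at 1000 µM. No library at either dose reached the lowest control. The log2 fold changes were -0.53 ± 0.13 at 100 µM (edgeR adjusted p = 0.00292) and -0.37 ± 0.13 at 1000 µM (adjusted p = 0.0216). Both calls were lost with the set term (-0.23, adjusted p = 0.495, and -0.19, adjusted p = 0.457). Without set C, MTF1 was at -0.24 at 1000 µM (adjusted p = 0.0971) and at -0.36 in the 1 library left at 100 µM, whose spread is taken from the other groups (adjusted p = 0.0736). The call at 1000 µM was also lost without control replicate 1 (-0.32, adjusted p = 0.0757), without replicate 3 at 1000 µM (-0.24, adjusted p = 0.112) and in a fit of control and 1000 µM alone, where the fold change was as before (-0.37, adjusted p = 0.0745). At both doses the libraries of set C were lower than those of set B.

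At 0.01, 0.1 and 1 µM none of the 9 genes was called by edgeR, where 0.0279%, 0% and 0.106% of all features were. At each of these doses 1 of the 8 had an unadjusted p under 0.05, as did 15% of all features at 0.01, 9.48% at 0.1 and 15.7% at 1 µM. DESeq2 called 1, 0 and 0 of the members, and 3.12%, 0.498% and 3.22% of the features it gave an adjusted p. Adding the set term gave 1, 0 and 1, and at 0.1 µM 0.0223% of all features were called. At 1 µM MT1X, and at 10 µM SLC39A14, was the single member whose libraries did not overlap the controls, where 17.3% and 39.8% of all features did not. Tested jointly over the 6 doses, all 8 genes were called, against 73.6% of all features. On a scale of dose ranks from 0 for control to 6 for 1000 µM, 6 were called, against 55.3%. The slopes per rank were 0.84 log2 units for MT1X, 0.79 for MT1E, 0.68 for MT2A, 0.43 for MT1F, 0.31 for MT1G and -0.084 for MTF1. SLC30A1 (0.068, edgeR adjusted p = 0.0697) and SLC39A14 (-0.020, adjusted p = 0.608) did not pass. SLC30A1 was called on dose rank without control replicate 3 (0.087, adjusted p = 0.0228), and without replicate 1 (0.078, adjusted p = 0.0319), replicate 2 (0.078, adjusted p = 0.0352) or replicate 3 (0.076, adjusted p = 0.0417) at 100 µM. On linear dose, with slopes per 1000 µM, SLC30A1 (0.76, adjusted p = 1.1e-05) and SLC39A14 (-0.40, adjusted p = 0.0363) were called, and MT1G (1.07, adjusted p = 0.102) and MTF1 (-0.32, adjusted p = 0.0704) were not. The set term left 4 slopes called, against 4.27% of all features, and 7 genes called jointly, against 59.8%. Under it the slopes of MT1F (0.39, adjusted p = 0.0537), MT1G (0.24, adjusted p = 0.0801) and MTF1 (-0.019, adjusted p = 0.708) lost their calls, and that of SLC39A14 gained one (-0.15, adjusted p = 0.0361).

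Within set B the 2 libraries at 1000 µM were set against the 3 at 10 µM. Of the 9 genes 6 were called higher and 1 lower, where 69.1% of 17090 features were called, 34.1% higher and 35.0% lower. MT1E was 34.8-fold higher (5.12 ± 0.13 log2, edgeR adjusted p = 2.45e-11), MT1X 24.2-fold (4.60 ± 0.20, adjusted p = 1.31e-09) and MT2A 20.9-fold (4.38 ± 0.085, adjusted p = 4.75e-12). MT1F rose by 2.08 ± 0.19 (adjusted p = 9.03e-07), MT1G by 1.29 ± 0.17 (adjusted p = 2.49e-05) and SLC30A1 by 0.63 ± 0.056 (adjusted p = 6.38e-07). SLC39A14 was lower (-0.77 ± 0.063, adjusted p = 2.94e-07). MTF1 differed by -0.11 ± 0.073 (adjusted p = 0.19). Set B holds no control, and SLC39A14 was itself called higher than control at 10 µM, so its difference here is not a measure of its fall from control.

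**Figure D3:**
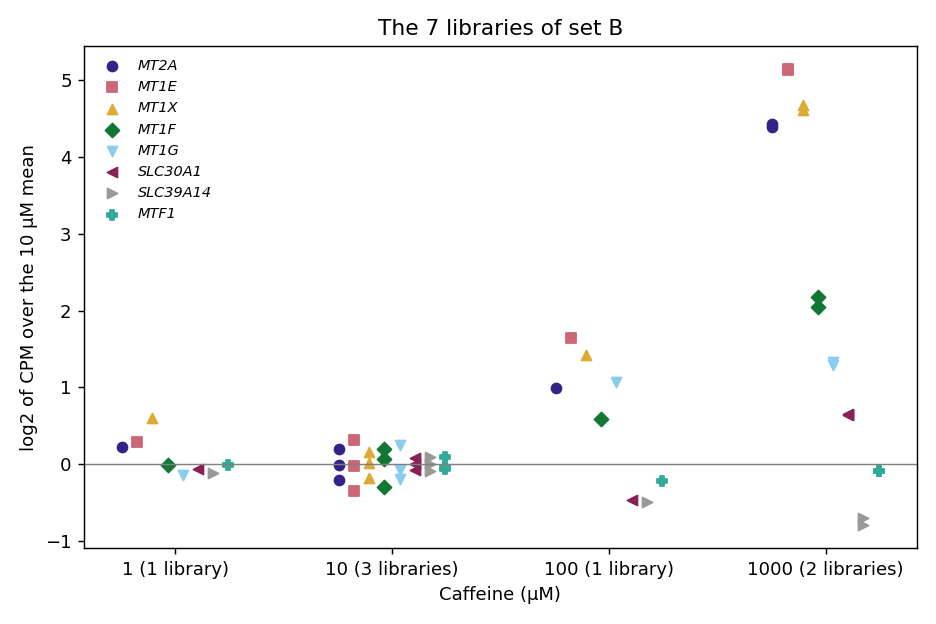
Log2 of CPM over the mean of the 10 µM libraries for the 8 tested genes, in the 7 libraries of set B by caffeine dose (µM); each point is 1 library. The 1000 µM libraries lie above those at 10 µM for the 5 metallothioneins and SLC30A1 and below them for SLC39A14.

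Other zinc transporters were read as a list of 23 genes, of which 22 were in the table and 16 tested. At 1000 µM 5 were called higher and 8 lower, with a median log2 fold change of -0.30, and at 100 µM 5 higher and 6 lower, where 23.6% of all features were called higher and 22.9% lower. The SLC39A genes, which as a family bring zinc into the cytosol, were then counted apart from the SLC30A genes, which as a family move it out. What each single gene carries was not considered, and the division was made after the values were seen. Of 10 SLC39A genes tested at 1000 µM, 7 were called lower and 1 higher, with a median of -0.59. Of 6 SLC30A genes 1 was called lower and 4 higher, with a median of 0.42. Of all features 29.1% were called lower and 28.5% higher at this dose. With the set term the counts were 7 lower and 0 higher for SLC39A, and 0 lower and 1 higher (SLC30A10, 0.84) for SLC30A. These were 8 of 16 genes, where 38.0% of all features were called. At 100 µM the set term left 4 of the 16 called, all lower, where 17.3% of all features were called. Within set B, 8 of 10 SLC39A genes were called lower and 0 higher, and 1 of 5 SLC30A genes lower and 2 higher, against 35.0% and 34.1% of all features. Since the division followed the values, it is a description only.

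SLC39A1, a plasma membrane importer, went from 151 ± 18.2 CPM (SD, n = 3) in control to 76.8 ± 0.766 CPM at 1000 µM (log2 -0.97 ± 0.081, edgeR adjusted p = 5.74e-09). SLC39A4, the importer whose loss causes the zinc deficiency disease acrodermatitis enteropathica, went from 84.7 ± 16.8 to 34.9 ± 10.7 CPM (-1.28 ± 0.18, adjusted p = 7.43e-06). At 100 µM SLC39A4 was called higher by 0.46 ± 0.18 (adjusted p = 0.0399), and that call was lost under the set term (-0.016, adjusted p = 0.99). SLC39A10, another plasma membrane importer, went from 103 ± 9.04 to 53.6 ± 9.54 CPM (-0.93 ± 0.13, adjusted p = 7.82e-06).

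Metallothioneins also bind copper, and SLC39A14 carries iron, so 19 genes of copper and iron handling were counted. All were tested, with 7 called higher and 5 lower at 1000 µM (median 0.11) and 9 higher and 3 lower at 100 µM. Under the set term 8 were called at 1000 µM and 4 at 100 µM. Of all features, 57.6% were called at 1000 µM and 46.6% at 100 µM without the set term, and 38.0% and 17.3% with it, which the counts of this and the next lists are to be read against. SLC40A1, the iron exporter ferroportin, rose from 52.7 ± 6.86 CPM (SD, n = 3) to 185 ± 21.7 CPM at 1000 µM (1.81 ± 0.10 log2, edgeR adjusted p = 1.8e-11). TF, the plasma iron carrier transferrin, fell from 4099.9 ± 90.5 to 2332 ± 95.2 CPM (-0.81, adjusted p = 1.65e-08), and ACO1, which also acts as an iron regulatory protein, from 69.4 ± 1.98 to 41.9 ± 1.01 CPM (-0.73, adjusted p = 4.53e-08).

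Of 12 glucocorticoid response genes 9 were tested, with 5 called higher and 3 lower at 1000 µM (median 0.20) and 4 higher and 3 lower at 100 µM. The set term left 6 and 3 called. The glucocorticoid receptor gene NR3C1 rose from 17.4 ± 2.61 to 61.1 ± 2.22 CPM at 1000 µM (1.81 ± 0.11 log2, edgeR adjusted p = 8.77e-11). FKBP5, a co-chaperone of that receptor, rose from 35.7 ± 3.47 to 75.7 ± 2.22 CPM (1.09, adjusted p = 2.11e-08), and ERRFI1, an inhibitor of the EGF receptor, from 387 ± 34.6 to 2166 ± 79.8 CPM (2.48, adjusted p = 8.94e-14). The other tested genes of the list, named after their values were seen, went both ways. TSC22D3 (4.57 ± 0.48, adjusted p = 1.35e-07) and TAT (0.20, adjusted p = 0.0482) were called higher, PER1 (-0.50, adjusted p = 0.0292), DUSP1 (-1.04, adjusted p = 1.24e-05) and GADD45B (-1.37, adjusted p = 1.05e-06) were called lower, and SGK1 (0.0012, adjusted p = 0.991) did not pass. At 100 µM TAT was called lower (-1.15, adjusted p = 7.65e-09, and -0.98, adjusted p = 0.00025, with the set term). Adding the set term ended the calls at 1000 µM of TAT (adjusted p = 0.0669) and DUSP1 (adjusted p = 0.064). Of 18 acute phase genes 14 were tested, with 4 called higher and 7 lower at 1000 µM (median -0.31) and 2 higher and 5 lower at 100 µM, and 12 and 3 called with the set term. The fibrinogen chains FGA (-1.77, adjusted p = 4.95e-12) and FGB (-1.33, adjusted p = 3.61e-10) fell at 1000 µM. FGB and TF are also among the hepatocyte markers above. IL6R, a receptor chain for interleukin 6, rose (1.23, adjusted p = 2.76e-10). The other called genes of this list were named after their values were seen. SERPINA3 (1.24), SOCS3 (1.68) and CEBPB (1.72) were higher. IL6ST (-0.50), FGG (-0.99), SAA4 (-1.03), HP (-1.18) and CEBPD (-1.72) were lower. Each was also called with the set term. At 100 µM SERPINA3 was called lower (-0.59, edgeR adjusted p = 0.00052), a call lost with the set term (-0.49, adjusted p = 0.155). All 12 genes that the rule named from the 4 lists were also called at 1000 µM, in the same direction, with the set term, as was TSC22D3 (4.40, adjusted p = 0.00104). No gene of these 4 lists was called at 0.01, 0.1 or 1 µM by edgeR without the set term.

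**Figure D4:**
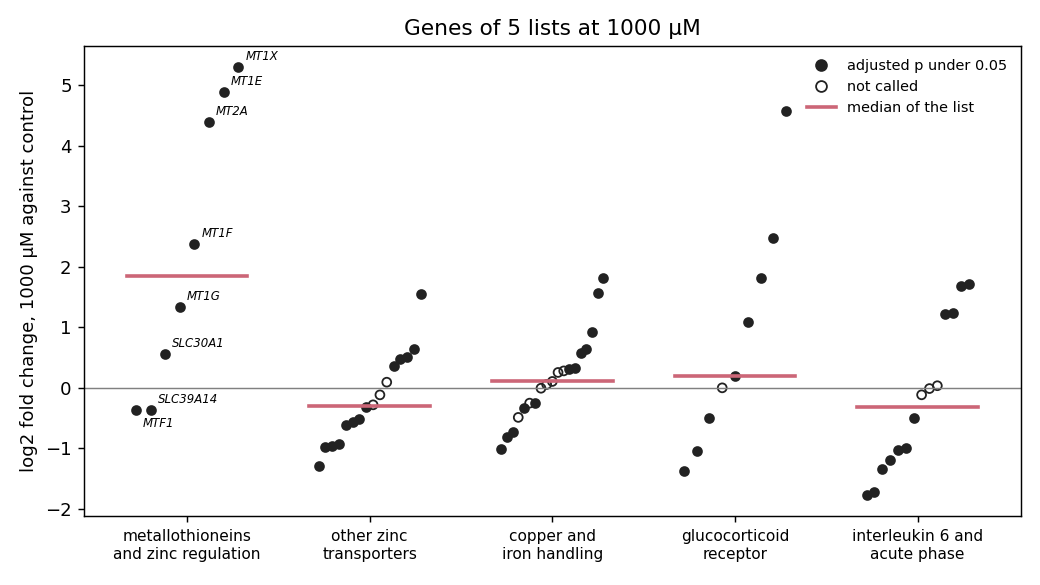
Log2 fold change at 1000 µM against control for the 8 tested members and the tested genes of the 4 lists; each point is 1 gene, filled where its adjusted p was under 0.05, and the bar is the list's median. Members run from -0.37 to 5.30, and the other zinc transporters have a median of -0.30.

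Likeness to MT2A was ranked over log2 CPM of the 21 libraries, among 10613 named genes that average 5 CPM or more. The highest Pearson r were 0.985 for CNBP, 0.983 for SPTSSB, 0.983 for ZMIZ1-AS1, 0.981 for PXK and 0.978 for YARS1. ZMIZ1-AS1 is an antisense gene whose reads cannot be told apart from those of its partner without strand. Among the members r with MT2A was 0.971 for MT1E, 0.950 for MT1X, 0.917 for MT1F, 0.735 for MT1G, 0.605 for SLC30A1, -0.654 for MTF1 and -0.658 for SLC39A14. SLC30A1 was most like SLC38A2 (r = 0.968), IBTK (0.965), BIRC2 (0.956), GPAM (0.955) and PPM1A (0.954). These correlations are descriptions across libraries that share their dose groups and sets.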

How the data were processed

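RNA was measured in 21 HepG2 libraries. The authors deposited whole-number read counts for each feature, not normalized. Poly(dT) selection and the SmartScribe reverse transcriptase come from the labels' protocols. The submitters' processing notes name HISAT2, DESeq2 and GRCh38 without role or order. The annotation release and use of strand are not given in the sources used here. Besides the counts, 21 per-sample columns were left aside.

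Symbols were matched by Ensembl identifier (24852 features). Counts were filtered with filterByExpr (17951 features kept), scaled by TMM, and tested by robust quasi-likelihood in edgeR 4.0.16 under R 4.3.3, in 1 fit over 7 groups of 3. P-values are 2-sided and adjusted by Benjamini-Hochberg over all features tested, at 0.05. SE is the absolute log2 fold change over the square root of F. CPM uses TMM-scaled libraries, and log2 CPM a prior count of 2. Library sets came from average linkage on 13 mitochondrial mRNAs (mean silhouette 0.571 at 3 clusters). The fit was tested on simulated data that held no library sets, so this does not test it where set and dose are confounded. The reads carry no molecular identifiers, so intervals and floors describe counting error alone.

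The members, the lists (other metallothioneins, other zinc transporters, copper and iron handling, glucocorticoid, acute phase) and the library sets were chosen with earlier results of these data known. From each list the up to 3 called genes with the smallest p at 1000 µM are named. For likeness the 5 highest r are named. Alternatives were DESeq2 1.42.0 and its size factors, no filter, a minimum mean of 5 CPM, the replicate number as a block, the library set as a term, only control and 1 dose, a prior count of 0.5, linear dose in the trend, each library left out, and, added after seeing the data, set C left out. Coordinates and coding sequences come from GENCODE 29.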

Additional observations from a re-analysis of the deposited data

How the results depend on the processing

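The number of members called in each comparison held within 1.5 times of its value with DESeq2 size factors and without a filter. A minimum mean of 5 CPM tests only 4 of the 8 members (5 in set B), and the counts then were 3 at 100 µM, 4 at 1000 µM, 2 for 1000 against 100 µM, 4 jointly, 2 on dose rank and 4 in set B. With the library set as a term 1 member was called at 0.01 µM, 1 at 1 µM and 0 at 10 µM, where SLC39A14 reversed to -0.10. DESeq2 called 1 at 0.01 µM. Without set C, an alternative added after seeing the data that leaves 1 library at 100 µM, 4 were called at that dose. The members' fold changes and slopes were counted over these settings together with the fits that left out each library, described next. Of them 1821 stayed on the same side of the threshold, 24 lost the call, 19 gained one and 1 that had been called reversed in sign. Changes of sign in values that were not called are among the 1821. The total includes 0.01, 0.1 and 1 µM, where no member was called in the main fit.

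With each library left out in turn, the counts ran from 0 to 1 at 10 µM (0 without control replicate 1 or 2 or 10 µM replicate 1 or 3), 7 to 8 at 100 µM, 6 to 8 at 1000 µM, 4 to 5 for 1000 against 100 µM, 8 to 8 jointly, 6 to 7 on dose rank and 7 to 7 in set B, and were 0 to 0 at 0.01, 0.1 and 1 µM. With the replicate number as a block the counts were 0, 0, 0, 1, 7 and 8 at the 6 rising doses, as without it. Replicate numbers did not pair the libraries: the mean correlation of deviations ran from -0.108 to 0.152 over 21 pairs of groups, and in 0 of them were all pairs over 0.1. Depth limits MT1X below 100 µM (2 to 18 reads a library) and MT1M.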
